A study of Mus musculus with 12 samples.

Results

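The comparison set the neural tube of mouse embryos at gestation day 9.5 (GD9.5) against that of embryos a full day younger, at GD8.5, over every gene the array names. Its members were chosen by the sample titles and were 8 of the series' 12 arrays, 4 at each stage. All embryos were of the outbred ICR (CD-1) stock, with no genetic change and no treatment, and the day of the mating plug was counted as GD0. Embryos were freed of decidua and the tube was micro-dissected, total RNA of each replicate was labelled with biotin, and Affymetrix GeneChip arrays of the mouse genome measured messenger RNA. Only the GD8.5 replicates 3 and 4 are on the log2 scale of the 4 GD9.5 arrays, so they carried the comparison (n = 2 against n = 4). GD8.5 replicates 1 and 2 were deposited as linear intensities and were used to check directions alone. The labels call the replicates biological but do not say whether embryos or litters were pooled, so p-values measure the spread between these arrays, and the number of arrays limits the precision. The labels give neither the axial extent of the dissected tissue nor the sex of the embryos.

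Between these stages the folds of the mouse neural plate finish meeting along the head and trunk and the plate becomes a closed tube. A single layer of dividing neuroepithelial cells makes up most of that tube, held in the progenitor state by SoxB1 factors and Notch signalling through Hes genes. Proneural factors of the basic helix-loop-helix (bHLH) family then release the earliest cells into neuron differentiation, while Wnt and BMP signals from the dorsal side and Hedgehog signals from the ventral side divide the tube into progenitor domains.

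The defining markers of the neural tube were present at both stages. The summed log2 level of Sox1, Sox2, Sox3, Pax6, Pax3, Nes and Zic2 was 39.5 to 39.7 in the GD8.5 arrays and 43.5 to 44.4 at GD9.5, with none at the background level of 1.42 (the 95th percentile of 39 olfactory receptor genes). Markers of other tissues were present as well, and those of heart, yolk sac and decidua had far higher levels at GD8.5. The 5 heart markers summed to 32.6 to 32.7 at GD8.5 and 8.33 to 8.71 at GD9.5, where Tnnt2 was at background. The 5 yolk sac and endoderm markers summed to 34.0 to 34.4 and then 7.61 to 7.96, with Apob at background at GD9.5. The decidual marker Prl8a2 stood at 9.45 to 9.48 and then at 5.54 to 5.79, so it was not absent from the later tubes. The 4 measured red cell markers went the other way, from 29.1 to 29.7 up to 37.8 to 38.7. The 5 markers of macrophages and platelets summed to 10.2 to 10.9 and then 13.8 to 14.0, with Ptprc at background at both stages. Pf4 alone carried that rise (log2 change 3.29). Csf1r, Itga2b, Ptprc and Tyrobp changed by -0.27, -0.21, 0.25 and 0.29 and did not pass the test. Surface ectoderm markers summed to 25.3 to 25.7 and then 20.7 to 21.3 (Grhl3 at background at GD9.5). Mesoderm markers summed to 22.3 to 22.6 and then 21.1 to 21.4, and endothelial markers to 13.3 to 13.4 and then 11.5 to 12.1. Shh, the notochord marker that was measured, read 6.12 to 6.15 and then 5.84 to 5.97. In tissue of mixed cells, fewer cells of a type and less RNA per cell cannot be told apart. Within a stage the log2 arrays correlated at 0.9961 or more, and between GD8.5 and GD9.5 at 0.9831 at most.

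A gene was read at its brightest probe set and called at an adjusted p under 0.05 in limma over all 45037 probe sets. Of 18193 genes, 2559 were higher at GD9.5 (14.1%) and 2096 lower (11.5%), so 25.6% were called, and 8700 probe sets were (19.3%). Most changes were small: 427 rises and 308 falls were 2-fold or more, and 89 rises and 90 falls were 4-fold or more. The median log2 change was 0.52 over the rises and -0.45 over the falls, against -0.02 over all genes. The arrays of the stages did not overlap for 45.9% of genes. Many of the largest changes fell into the gene lists, though 45 of the 89 rises and 39 of the 90 falls were in none. Over all genes, 280 of 18193 were members of the neural lists and 98 of the heart, endoderm or decidua lists. Of the 89 rises of 4-fold or more, 35 were members of the neural gene lists, 5 of the red cell list and 0 of the heart, endoderm or decidua lists. Of the 90 falls, 37 were members of heart, endoderm or decidua lists and 1 of a neural list. The GD9.0 mean lay between the other stage means for 89 of the 89 rises and 77 of the 90 falls (85.6%). It did so for 82.8% of all called rises, 78.1% of all called falls and 47.5% of all genes.

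**Figure D1:**
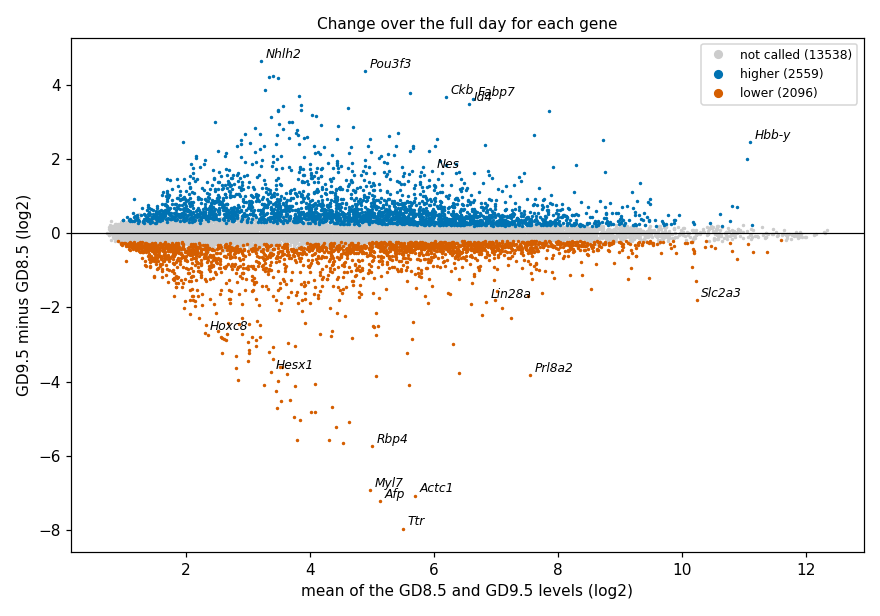
Change over the full day for each of 18193 genes: the x axis is the mean of the GD8.5 and GD9.5 log2 levels, the y axis the log2 change (GD9.5 minus GD8.5), and colours mark the 2559 genes called higher and the 2096 called lower. The deepest points, Ttr, Afp, Actc1 and Myl7, lie at about -7 to -8, while the highest rise, Nhlh2, is at 4.64.

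The highest rise was that of Nhlh2, a bHLH factor of newly formed neurons. It read 0.98 and 0.80 in the GD8.5 arrays and 5.58, 5.57, 5.42 and 5.55 at GD9.5, a log2 change of 4.64 ± 0.08 (standard error of the fit; adjusted p = 4.7e-12), or at least 17.2-fold since GD8.5 lay below background. Pou3f3, a POU factor of neural progenitors, read 2.75 and 2.68 and then 7.18, 7.02, 6.97 and 7.16, which was 20.7-fold (4.37 ± 0.08; adjusted p = 8.1e-12). For both genes every GD9.5 array lay above both GD8.5 arrays. The other probe set of Pou3f3 was not called (log2 change 0.44). Pantr1, a noncoding RNA gene next to Pou3f3, rose with it by 13.9-fold. Neurod1, a bHLH factor of neuron differentiation, read 1.40 in both GD8.5 arrays, at background, and 5.52 to 5.72 at GD9.5, at least 17.8-fold. The ephrin receptor Epha3 rose at least 17.1-fold, the brain creatine kinase Ckb 12.7-fold, Rspo2, which amplifies Wnt signals, 13-fold, and Id4, an inhibitor of bHLH factors, 11.3-fold. The 15 highest rises also held C130071C03Rik (at least 16.2-fold), Cnpy1 (at least 13.7-fold), Ptx3 (11-fold), Rufy3 (10.7-fold), Fabp7, Elavl4 and Nefm.

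The deepest falls were those of secreted proteins of visceral endoderm and of heart muscle. Ttr, which encodes the thyroxine carrier transthyretin, read 9.50 and 9.46 at GD8.5 and 1.39, 1.46, 1.68 and 1.56 at GD9.5, a fall of 249-fold (-7.96 ± 0.09; adjusted p = 4.2e-13). Afp, the fetal serum protein alpha-fetoprotein, went from 8.75 and 8.74 to 1.25 to 1.67, and Actc1, cardiac actin, from 9.25 and 9.23 to 1.98 to 2.45, falls of 149-fold and 134-fold. For all 3 the arrays of the stages lay far apart, and Ttr and Afp ended near background. Eras, a Ras-like gene known from embryonic stem cells, went from 6.42 in both arrays to 1.56 to 1.69, a 28.0-fold fall. Phlda2, an imprinted gene that restrains placental growth, fell 34.1-fold.

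**Figure D2:**
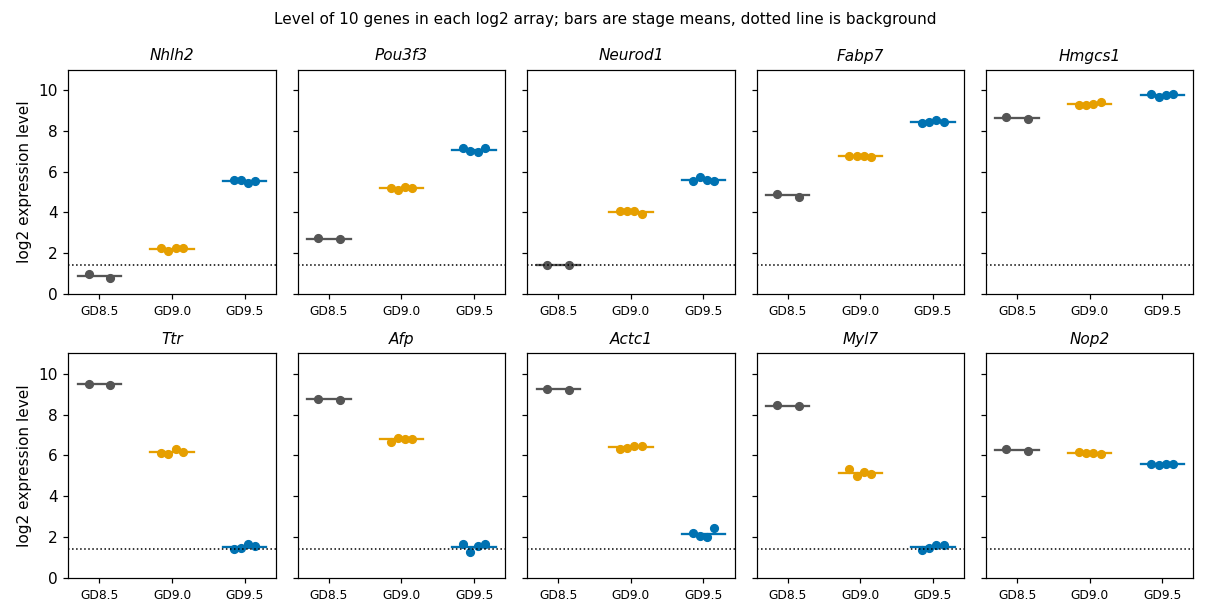
Log2 expression level of 10 genes in each of the 10 log2 arrays, by stage; points are arrays, bars are stage means and the dotted line is the background of 1.42. Nhlh2 and Neurod1 start at or below the line and end above 5, while Ttr, Afp and Myl7 start above 8 and end close to it.

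Promoters of 14368 of the 18193 genes were matched by gene ID in RefSeq (build GRCm38.p6). The 4 below are shown because each stands for a group of genes that moved together: Pou3f3 for neural progenitors and Tm7sf2 for sterol synthesis, which rose, and Actc1 for heart muscle and Ppan for ribosome assembly, which fell. Each run gives the 150 bases before the transcription start, 5′ to 3′, and capitals mark every CG.
Pou3f3 (chr1:42695618-42695767, plus strand): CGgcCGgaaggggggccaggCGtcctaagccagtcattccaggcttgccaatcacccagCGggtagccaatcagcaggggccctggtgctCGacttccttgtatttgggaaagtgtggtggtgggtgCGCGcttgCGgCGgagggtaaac
Tm7sf2 (chr19:6067851-6068000, minus strand): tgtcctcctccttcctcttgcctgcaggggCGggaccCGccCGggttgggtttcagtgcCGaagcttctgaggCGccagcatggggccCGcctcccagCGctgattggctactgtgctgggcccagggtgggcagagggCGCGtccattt
Actc1 (chr2:114052876-114053025, minus strand): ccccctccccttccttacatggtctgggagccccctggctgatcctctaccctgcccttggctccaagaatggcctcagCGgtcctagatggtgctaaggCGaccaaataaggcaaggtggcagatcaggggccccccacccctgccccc
Ppan (chr9:20888025-20888174, plus strand): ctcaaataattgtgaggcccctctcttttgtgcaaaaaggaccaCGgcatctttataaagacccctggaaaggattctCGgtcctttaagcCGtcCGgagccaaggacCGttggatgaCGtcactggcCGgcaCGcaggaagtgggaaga
Pou3f3 and Tm7sf2 each hold 9 CG in this stretch, Ppan 8 and Actc1 2. Over 300 bases (250 before the start and 50 after), a promoter was counted as CpG-rich where its observed over expected CpG was 0.6 or more. The ratio was 0.943 for Ppan, 0.699 for Pou3f3, 0.552 for Tm7sf2 and 0.259 for Actc1. Tm7sf2 was therefore not CpG-rich by this measure, despite its 9 CG. The share of CpG-rich promoters was 64.6% among genes above background that were not called. It was 60.6% among genes called lower, and 35.9% among genes lower by 4-fold or more. It was 15.2% for the heart muscle list, 21.4% for the endoderm and yolk sac list, 83.0% for ribosome biogenesis and 66.7% for sterol synthesis. The letters TATAAA, on either strand, stood in 7.52% of promoters of genes not called, 23.9% of the heart muscle list and 23.3% of genes lower by 4-fold or more. In the printed stretches, Ppan holds TATAAA and Actc1 does not. For the neural progenitor and young neuron lists, under 80% of genes had a promoter in the table. The same was true of genes called higher (2047 of 2559) and of those higher by 4-fold or more (65 of 89). These shares are void and not given, so whether the shares of the falls differ from those of the rises cannot be told. The shares describe the letters in these windows and were not tested.

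Neural progenitor genes rose as a group: 27 of 34 measured members were higher and 0 lower, against 14.1% of all genes higher, with a median log2 change of 0.66. Fabp7, the fatty acid binding protein of radial glia, read 4.89 and 4.78 at GD8.5 and 8.40, 8.41, 8.52 and 8.45 at GD9.5, a 12.2-fold rise (3.61 ± 0.07; adjusted p = 8.1e-12). Zic1, a transcription factor of the dorsal tube, rose 9.89-fold, from 6.25 and 6.16 to 9.46 to 9.58. Pou3f3, whose promoter is printed above, belongs to the same list. Nes, the intermediate filament nestin, went from 5.14 and 5.12 to 6.74 to 6.95, a 3.22-fold rise. The SoxB1 factors changed by smaller factors: Sox2 rose 1.42-fold and Sox3 1.53-fold. Sox1 rose 1.5-fold in the log2 arrays, but both linear GD8.5 arrays placed it above the GD9.5 mean (5.61 and 5.48 on the mapped log2 scale, against 5.42). Zic2 did not pass the test (4.14 in both GD8.5 arrays and 4.05 ± 0.089 (SD, n = 4) at GD9.5). Both linear GD8.5 arrays placed Zic2 higher, at 4.92 and 5.08 on the mapped log2 scale.

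The Notch list was higher for 15 of 31 members and lower for 3, against 14.1% and 11.5% of all genes. Its median log2 change was 0.29. Hes5, the Notch target that keeps progenitors from differentiating, rose 5.08-fold, from 3.82 and 3.70 to 6.01 to 6.17. Nrarp, a feedback inhibitor of the pathway, rose 4.91-fold, and Dner, a Notch ligand of neurons, at least 4.64-fold. The ligand gene Dll3 rose 3.00-fold. The 3 that fell were other targets: Hey2 (1.75-fold), Hes7 (1.48-fold), the oscillating factor of somite formation, and Hes1 (1.33-fold). The Hes7 fall was absent from the linear arrays, where both GD8.5 replicates lay below the GD9.5 mean, and its call was lost without GD8.5 replicate 3 (adjusted p = 0.054).

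Genes that drive and build neurons rose, beside 14.1% of all genes higher and 11.5% lower. Of 26 proneural and related bHLH genes, 17 were higher and 1 lower, with a median log2 change of 1.08. Besides Nhlh2 and Neurod1, Olig2, the factor of motor neuron progenitors, rose at least 2.14-fold from a GD8.5 mean at background. The member that fell was Id1, a BMP-responsive inhibitor of bHLH factors (1.76-fold), whereas Id4 rose. Of 49 genes of young neuron structure and synapse, 34 were higher and 1 lower (median 0.78). Tubb3, the neuronal tubulin, went from 3.80 and 3.97 to 5.99 to 6.16 (4.58-fold). Dcx, the microtubule protein doublecortin of migrating neurons, read 1.13 and 0.80 and then 3.69 to 4.13, at least 5.86-fold. Elavl4, a neuronal RNA-binding protein, rose 10.3-fold, the neurofilament gene Nefm 10.1-fold and Gpm6a, a membrane protein of growth cones, 9.03-fold. The heavy neurofilament gene Nefh was the exception and fell 1.56-fold. The summed level of the 5 neuron markers was 16.0 to 16.5 at GD8.5 and 26.2 to 26.8 at GD9.5.

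Transcription factors of particular neuron types were mixed: 6 of 34 were higher and 9 lower, and without GD8.5 replicate 3, GD8.5 replicate 4 or GD9.5 replicate 3 only 5 were lower. Over all genes 14.1% were higher and 11.5% lower. Onecut2 rose 6.39-fold, En2 3.84-fold and Foxp2 3.40-fold. Gbx2, a factor of the anterior hindbrain, fell 3.75-fold and Foxd3 fell 1.89-fold. Axon guidance genes were higher for 16 of 45 and lower for 8 (5 without GD8.5 replicate 3). The netrin receptor gene Dcc rose 6.56-fold and the repellent gene Slit2 4.35-fold, and with Epha3 they were the highest rises of the list. The semaphorin receptors Nrp1 and Nrp2, which endothelial and mesenchymal cells also carry, fell 3.03-fold and 3.01-fold.

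Most dorsal patterning genes rose, and the ventral list was mixed. On the dorsal list 16 of 24 were higher and 3 lower (median 0.61), and on the ventral and Hedgehog list 8 of 27 were higher and 5 lower (median 0.04). This difference between lists was not tested. Of all genes, 14.1% were higher and 11.5% lower. The R-spondins, secreted amplifiers of Wnt signals made by the roof plate, moved together at their brightest probe sets. Rspo1 rose 8.06-fold, from a mean of 2.16 to 5.17, Rspo2 13-fold and Rspo3 5.86-fold. The other probe sets of Rspo2 and Rspo3 were not called (log2 changes of -0.16 and 0.39). Dlx5 and Gdf10 fell 1.72-fold and 1.40-fold. In the ventral list, Dbx1, a factor of intermediate progenitors, rose 9.18-fold and Boc, a Hedgehog coreceptor, 2.17-fold. The floor plate and endoderm factors Foxa1 and Foxa2 fell 3.33-fold and 2.73-fold, and the Hedgehog receptor and target Ptch1 fell 1.6-fold. Foxa1 and Foxa2 also stand on the endoderm list, whose median change was -1.65, and the part of endoderm tissue in their change was not tested.

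Forebrain and midbrain patterning genes were higher for 13 of 35 and lower for 7 (4 without GD8.5 replicate 4). Dmrta2 and Emx2, factors of the dorsal forebrain, rose 5.15-fold and 4.46-fold. Hesx1, an early factor of the anterior plate and pituitary, read 5.28 and 5.2 at GD8.5 and 1.41 to 1.66 at GD9.5, a 13.3-fold fall. Neural crest genes were higher for 6 of 26 and lower for 10. Both lists stand beside 14.1% of all genes higher and 11.5% lower. Ednrb, an endothelin receptor gene of crest precursors, rose 2.60-fold and Tfap2b 2.39-fold, whereas Sox10 and the neuregulin receptor gene Erbb3, which mark migrating crest, fell 2.53-fold and 2.34-fold.

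Many Hox genes and genes of earlier states fell. Among Hox genes, which set position along the body axis, 7 of 13 of the anterior groups and 9 of 20 of the posterior groups were lower, and 0 of either were higher, against 11.5% of all genes lower. Only 9 of the 13 and 11 of the 20 were above background at any stage. Hoxb2, a hindbrain gene, went from 5.40 and 5.10 to 3.56 to 3.82 (2.87-fold). Hoxc8, a trunk gene, went from 3.48 and 3.83 to 0.81 to 1.24, at least 4.69-fold. The caudal progenitor list was mixed, with 7 of 30 higher and 10 lower. Nkx1-2 and Cdx4, factors of axial progenitors, fell at least 6.33-fold and 3.81-fold, and Cyp26a1, which breaks down retinoic acid at the tail end, fell 5.34-fold. The labels do not say whether the same length of tube was taken at both stages, so position and time cannot be told apart for these genes. Of 36 pluripotency and epiblast genes, 14 were lower and 3 higher. Lin28a, the RNA-binding protein that blocks let-7 maturation, went from 7.83 and 7.70 to 5.75 to 6.06 (3.58-fold), and Dnmt3b, a de novo DNA methyltransferase, from 8.55 and 8.53 to 6.92 to 6.96 (3.03-fold). The X-linked tumour antigen gene Trap1a fell at least 4.93-fold. The members that rose were Fgf15, Sox2 and Otx2, which the neural tube also uses, and the Otx2 call (1.21-fold) was lost without any one of GD8.5 replicates 3 and 4 and GD9.5 replicates 1, 3 and 4 (adjusted p from 0.06 to 0.16).

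Signalling lists moved both ways, beside 14.1% of all genes higher and 11.5% lower. Canonical Wnt genes were higher for 16 of 54 and lower for 8: the R-spondins led the rises, and the receptor gene Fzd5 and the antagonist gene Dkk1 fell 4.42-fold and 3.41-fold. FGF pathway genes were higher for 10 of 28 and lower for 7, with Fgfbp3 and Fgfr3 up by 3.53-fold and 3.11-fold and Dusp4, a feedback phosphatase, down by 2.12-fold. BMP and TGF-beta genes were higher for 9 of 41 and lower for 14: the ligand gene Bmp2 fell 7.31-fold and its antagonist gene Fst 2.33-fold, while the receptor gene Bmpr1b rose 2.35-fold. Retinoic acid genes were higher for 8 of 21 (5 without GD8.5 replicate 4) and lower for 5. Aldh1a2, the enzyme that makes retinoic acid in trunk mesoderm, fell at least 5.91-fold and Aldh1a3, its relative of the head, rose 2.97-fold. Planar cell polarity and closure genes were higher for 9 of 41 and lower for 10, and the lower count was 5 or 6 without GD8.5 replicate 3, GD8.5 replicate 4 or GD9.5 replicate 2. Celsr2 rose 2.49-fold and Prickle1, another core polarity gene, fell 3.09-fold.

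**Figure D3:**
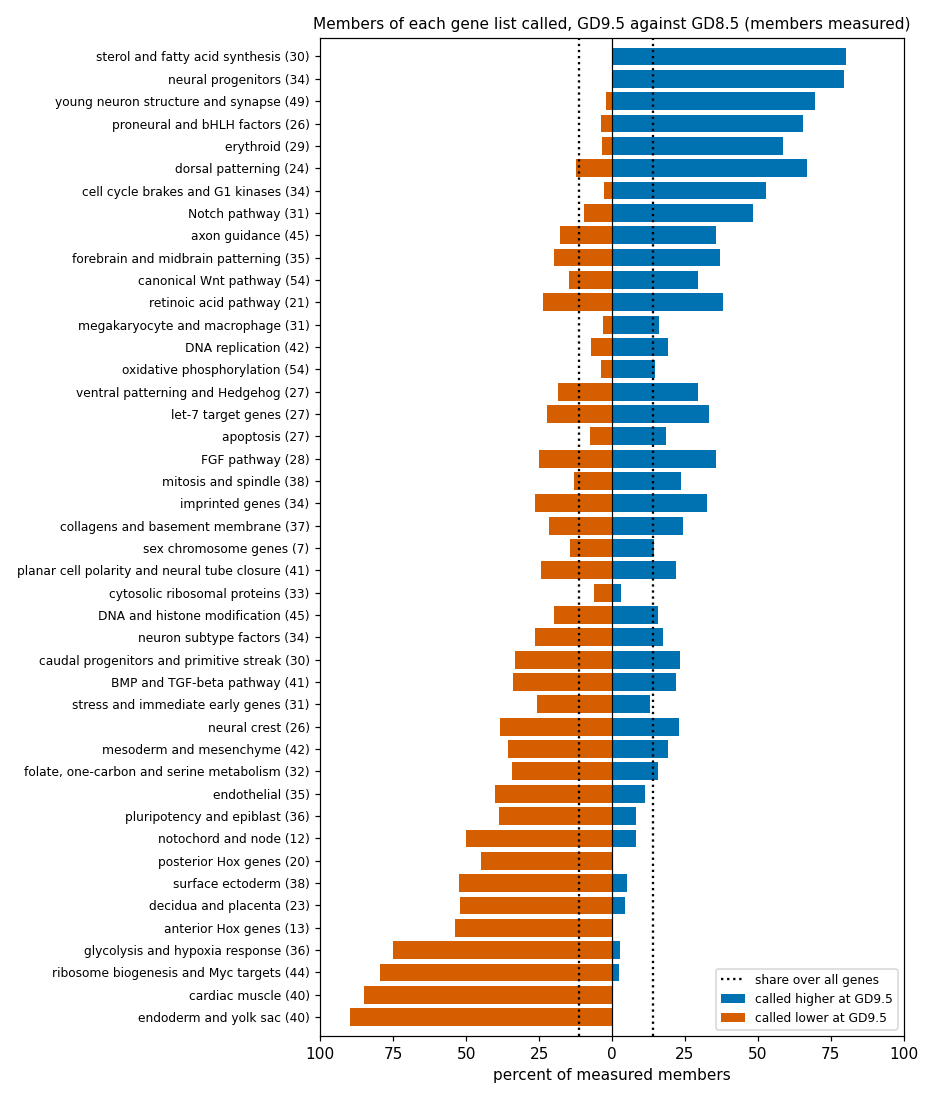
Share of the measured members of each gene list called higher (right) or lower (left) at GD9.5, in percent; the number of measured members follows each name and the dotted lines are the shares over all 18193 genes (14.1% higher, 11.5% lower). Sterol synthesis and neural progenitors stand at the top with no member lower, and heart muscle and endoderm at the foot with no member higher.

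Sterol and fatty acid synthesis was the metabolic list with the highest share of rises. Of its 30 members 24 were higher and 0 lower, against 14.1% and 11.5% of all genes. The median log2 change was 0.57. Hmgcs1, an early enzyme of the cholesterol pathway, went from 8.66 and 8.60 to 9.79, 9.68, 9.76 and 9.81 (2.18-fold; 1.13 ± 0.07; adjusted p = 2.8e-07). Tm7sf2, a sterol reductase whose promoter is printed above, went from 1.96 and 1.98 to 3.46 to 3.68 (2.98-fold), and Acss2, which makes acetyl-CoA from acetate, rose 2.28-fold. In the linear arrays 23 of the 24 kept the direction in both replicates.

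Glycolysis and hypoxia response genes fell over the day: 27 of 36 were lower and 1 higher, with a median of -0.70. Slc2a3, a glucose transporter, went from 11.14 and 11.13 to 9.33 to 9.37 (3.46-fold). Pfkp, a phosphofructokinase, fell 3.66-fold and the hypoxia-induced peptide gene Adm 3.38-fold. The exception was Ldhb, the lactate dehydrogenase subunit of oxidative tissues, which rose 2.84-fold, from 6.59 and 6.66 to 8.01 to 8.22. Oxidative phosphorylation genes were called higher for 8 of 54 (14.8%) and lower for 2 (3.7%), against 14.1% and 11.5% of all genes. The arrays did not overlap for 24 of the 54 upwards and 10 downwards, against 23.2% and 22.7% of all genes. Without GD8.5 replicate 3 or 4 the higher count was 3 or 4 and the lower count 1, while an intensity trend in the fit gave 17 higher and 6 lower. Ndufs4 and Cox6a1 rose 1.27-fold and 1.26-fold.

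Ribosome biogenesis genes and Myc targets fell in small steps but nearly throughout. Of 44 members 35 were lower and 1 higher, against 11.5% and 14.1% of all genes. The median was -0.38, and in the linear arrays 35 of the 36 called members kept the direction in both replicates. Ppan, a factor of large subunit assembly, went from 6.28 and 6.31 to 5.39 to 5.62 (1.71-fold; -0.77 ± 0.08; adjusted p = 1.8e-05). Nop16 and Nop2, nucleolar proteins of the same pathway, fell 1.66-fold and 1.64-fold. The member that rose was Mycl, a neural Myc gene (1.99-fold). Of 33 cytosolic ribosomal protein genes measured, 1 was called higher (Rpl12) and 2 lower (Rpl14 and Rps9), and without GD8.5 replicate 3 none was called, with 0 lower without GD8.5 replicate 4 as well. With an intensity trend and robust spread in the fit, 14 were lower. For 17 of the 33 the GD9.5 arrays all lay below the GD8.5 arrays and for 3 above (22.7% and 23.2% of all genes), so small falls are not shown to be absent. The array's 18S ribosomal RNA control read 9.82 ± 0.0084 (SD, n = 2) at GD8.5 and 10.3 ± 0.085 (SD, n = 4) at GD9.5. The difference between 3′ and 5′ probe sets, which reflects RNA length, was 0.71 and 0.93 for actin but 0.039 and 0.049 for Gapdh. Their part in the changes was not tested, and with 2 against 4 arrays the exact permutation test cannot go below p = 0.0667.

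Among cell cycle genes, the brakes and G1 kinases moved most. Of 34 members, 18 were higher and 1 lower (median 0.36). Btg2, which slows division in progenitors about to form neurons, went from 3.25 and 3.36 to 5.15 to 5.58 (4.33-fold), Cdk6 from 4.02 and 4.03 to 5.64 to 5.75 (3.20-fold), and Gadd45g rose 2.80-fold. Gadd45a fell 1.93-fold. Mitosis genes were higher for 9 of 38 (5 without GD8.5 replicate 4) and lower for 5 (1 without GD8.5 replicate 3 or 4, and 3 without GD9.5 replicate 2), all changes of under 1.5-fold among those named: Mki67 rose 1.45-fold and Anln fell 1.29-fold. DNA replication genes were higher for 8 of 42 (4 without GD8.5 replicate 3 or 4) and lower for 3 (1 without GD8.5 replicate 3), with Tk1 up by 1.46-fold and Orc1 down by 1.36-fold. An intensity trend in the fit gave 15 higher on each of these lists, and 8 lower on the replication list. Over all genes the main fit called 14.1% higher and 11.5% lower.

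**Figure D4:**
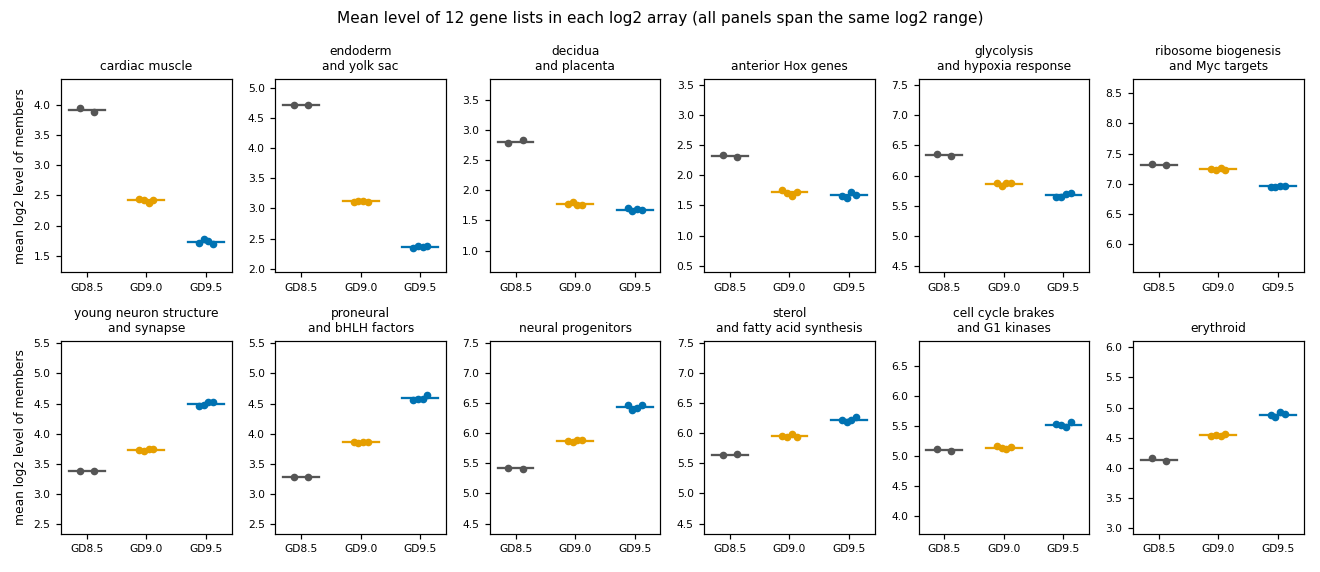
Mean log2 level of the measured members of 12 gene lists in each log2 array, by stage; points are arrays and bars stage means, and every panel spans the same log2 range on its own axis. Heart muscle and endoderm members drop by about 2 from GD8.5 to GD9.5, ribosome biogenesis drops less (7.31 to 6.96), and neuron, progenitor and red cell lists rise.

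Heart muscle genes fell in nearly the whole list: 34 of 40 were lower and 0 higher, against 11.5% and 14.1% of all genes. Their median log2 change was -1.48. Myl7, the atrial myosin light chain, went from 8.45 and 8.42 to 1.37, 1.44, 1.6 and 1.63 (121-fold; -6.92 ± 0.11; adjusted p = 1.8e-12). Tnnt2, cardiac troponin T, went from 6.42 and 6.31 to 0.91 to 1.62, at least 30.7-fold. Actc1, whose CG-poor promoter is printed above, Myl4 (at least 35.7-fold), Tnnc1 (28.2-fold), Myh7 (25.9-fold) and the muscle stress gene Ankrd1 (at least 21.2-fold) fell with them. The heart factor gene Nkx2-5 was low at both stages (means of 1.87 and 1.5), and its call was lost without GD8.5 replicate 3 or 4 (adjusted p = 0.078 and 0.054). Endoderm and yolk sac genes fell alike, with 36 of 40 lower, 0 higher and a median of -1.65. Besides Ttr and Afp, the apolipoprotein gene Apoa1 went from 7.40 and 7.33 to 1.66 to 1.82 (50.3-fold), Rbp4, the carrier of retinol, fell 53.5-fold, the protease inhibitor gene Spink1 47.6-fold and Apoc2 37.6-fold. Cubn, an uptake receptor of visceral endoderm, fell at least 27.8-fold. In the linear GD8.5 arrays, 29 of the 34 heart genes and 35 of the 36 endoderm genes kept the direction in both replicates. They are known from heart and yolk sac rather than the neural tube, and how much heart or yolk sac tissue each dissection held was not measured.

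Decidua and placenta genes were lower for 12 of 23 and higher for 1 (Wnt4, 1.47-fold). Prl8a2, a prolactin-family hormone of decidua, went from 9.45 and 9.48 to 5.54 to 5.79 (14.2-fold), and the small heat shock protein gene Cryab fell 12.2-fold. Surface ectoderm genes were lower for 20 of 38 and higher for 2. The simple epithelial keratins Krt8 and Krt18 fell 4.91-fold and 4.61-fold and the cell adhesion gene Cdh1 3.22-fold, whereas Trp63, the regulator of epidermal fate, rose 2.18-fold and Krt15 2.35-fold. Notochord and node genes were lower for 6 of 12 and higher for 1. Mesoderm and mesenchyme genes were higher for 8 of 42 and lower for 15: Hand2 fell at least 9.90-fold and Foxc2 3.66-fold, while Col3a1, a fibrillar collagen, rose 6.25-fold and Prrx1, a factor of head mesenchyme, 3.06-fold. Endothelial genes were lower for 14 of 35 and higher for 4: the early angioblast factor Etv2 fell 4.86-fold and Cd34 rose 3.36-fold.

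Red cell genes rose. Of 29 erythroid genes, 17 were higher and 1 lower, against 14.1% and 11.5% of all genes. The embryonic globin gene Hbb-y went from 9.92 and 9.84 to 12.26, 12.36, 12.34 and 12.35 (5.47-fold; 2.45 ± 0.07; adjusted p = 2.8e-10), Hba-x rose 5.67-fold and Hbb-bh1 4.01-fold. Slc4a1, the anion exchanger of the red cell membrane, rose 7.30-fold. The adult globin gene Hbb-b2 was the member that fell (1.36-fold), its call was lost without GD8.5 replicate 3 (adjusted p = 0.063), both linear GD8.5 arrays went the other way, and near-identical globin genes may share its probes. Of 31 megakaryocyte and macrophage genes, 5 were higher (3 without GD8.5 replicate 3 or 4) and 1 lower (0 without GD8.5 replicate 3 or GD9.5 replicate 1), a share of 16.1% higher against 14.1% of all genes. Pf4, platelet factor 4, went from 1.64 and 2.05 to 4.81 to 5.40 (9.81-fold), whereas the other markers of these cells, the platelet integrin gene Itga2b (3.49 and then 3.28), the macrophage genes Csf1r and Tyrobp and the leukocyte gene Ptprc, did not pass the test.

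Embryo sex could differ between samples. Of 7 sex chromosome genes measured, Xist, the RNA that silences one X chromosome, was higher by 1.22-fold (8.87 in both arrays against 9.12 to 9.24), and the Y-linked gene Eif2s3y lower by 1.22-fold. The Xist call was lost without GD8.5 replicate 3 or 4 (adjusted p = 0.089 and 0.085), and the Eif2s3y call without GD8.5 replicate 3 or 4 or GD9.5 replicate 1, 2 or 3 (adjusted p from 0.051 to 0.15). Uty (means of 3.31 and 3.32) and Kdm5d did not pass the test.

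The linear GD8.5 replicates gave a check of direction that did not enter the fit, though it shares the GD9.5 arrays with it. Of the 4655 called genes, 3914 (84.1%) differed from the GD9.5 mean in the same direction in both replicates, 523 in 1 of them and 218 (4.68%) in neither. Among the 13538 genes not called, 43.4% kept the fit's direction in both and 26.3% in neither. The share rose with the size of the change, from 75.0% for log2 changes under 0.3 to 89.4% for 0.5 to 1. Of the 735 called genes that changed 2-fold or more, 732 kept the direction in both and 0 in neither. Rises kept it in 86.2% and falls in 81.5%.

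**Figure D5:**
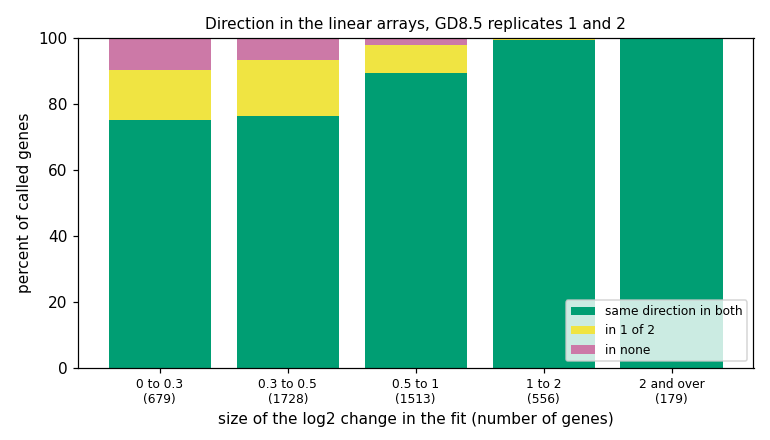
Percent of called genes whose direction was the same in both, in 1 or in none of the linear GD8.5 arrays, replicates 1 and 2, by the size of the log2 change in the fit, with the number of genes under each bar. All 179 genes that changed by 2 or more on the log2 scale kept their direction in both arrays.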

How the data were processed

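Total RNA of each micro-dissected sample was hybridised to 1 array, per the labels' protocols. Expression Console 1.2.1 (Affymetrix), GCRMA and RMA are listed in the submitters' processing notes, without saying which made which values. The deposited value table held log2 expression levels for 10 arrays and, for GD8.5 replicates 1 and 2, linear intensities. No scale was stated, and base 2 was assumed. Medians of the linear arrays were 92.2 and 98.3. The check of direction used their ranks, so the base does not affect it. Median log2 levels of the 10 arrays were 1.75 to 1.81.

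The 64 control probe sets were left out. Limma 3.58.1 in R 4.3.3 was fitted to 45037 probe sets of the 10 log2 arrays, with a mean per stage (7 residual degrees of freedom, prior 4.66); the GD9.0 arrays serve the estimate of spread. P-values were adjusted by Benjamini-Hochberg over all probe sets. Of the probe sets, 34945 named 1 gene in the platform annotation, 932 several and 9160 none. Each gene was read at its brightest probe set. Of 2885 called genes with several probe sets, 630 had all of them called the same way. Probe sets of 67 called genes were called in opposite directions. Hand2, Trp63, Sox10, Nkx1-2, Ptch1, Fzd5, Pou3f3, Rspo2, Rspo3 and Ptx3 are examples of named genes with only 1 called probe set among several. The other probe set had a log2 change of 0.44 for Pou3f3, -0.16 for Rspo2, 0.39 for Rspo3 and 0.06 for Ptx3. A stage mean at or under background gives "at least", computed against 1.42. For the direction check, log2 intensities were mapped by quantile onto the log2 arrays.

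The comparison's members and 44 gene lists (1456 of 1570 entries measured) were chosen with earlier results of these data known. Named were the 15 largest rises and falls with no overlap between arrays and no opposed probe sets, up to 3 rises, 3 falls and 2 exceptions per list, all markers and sex chromosome genes, and 4 promoters. Simulated data for this comparison held 45037 probe sets, with 50 of the brighter ones changed at each fold. The fit recovered 2% of changes of 1.2-fold, 52% of 1.5-fold, 90% of 2-fold and 100% of 4-fold. In the real data 8700 probe sets were called, so the adjusted threshold was less strict there. These shares therefore do not measure recovery in the real data. Since the deposited log2 arrays share nearly 1 distribution, a change common to most genes would not show. Alternatives covered the arrays fitted, normalization, filter, probe set choice, moderation, pairing and each GD8.5 or GD9.5 array left out.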

Additional observations from a re-analysis of the deposited data

Results flagged for a closer look

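Among the 180 named genes tested, 8 had a GD9.5 array whose distance from its nearest neighbour took up most of the range of the 4 arrays. Chance gives such a pattern for about 1 in 20 genes, so about this number is what chance gives here. GD8.5, with 2 log2 arrays, could not be tested. Replicate 2 held 4 of them: Sox2, a factor of neural progenitors, read 8.91 against 9.05 to 9.07 in the other arrays, Zic2 read 3.92 against 4.08 to 4.11, the cell death gene Bad 4.42 against 4.64 to 4.67, and Xist 9.24 against 9.12 to 9.14. In replicate 3 the Notch ligand gene Dll3 read 5.26 against 5.56 to 5.62, and Hand2 read 1.38 against 1.26, all below background. The proliferation gene Mki67 read 9.24 in replicate 1 against 9.20, and the Y-linked gene Eif2s3y 4.66 in replicate 4 against 4.47 to 4.49.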

How the results depend on the processing

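Under 15 alternatives the counts of 2559 higher and 2096 lower genes stayed within 1.5 times, except when a GD8.5 array was left out. Leaving out each GD8.5 and GD9.5 array in turn (the GD9.0 arrays were not left out singly) gave 1672 to 2388 genes higher and 1335 to 1885 lower: without GD8.5 replicate 4 there were 1672 and 1335, and without GD8.5 replicate 3 there were 1804 and 1351. With fewer arrays the lone GD8.5 sample is assumed to vary like the other stages. The other alternatives ran from 2188 (12 arrays after log2 and quantile normalization) to 3016 (intensity trend) higher and from 1666 (median centring) to 2506 lower. Every called gene that was tested kept its sign except under 2 settings. With 12 arrays 4565 of the 4655 did, and with probe sets averaged per gene 4610 did. No sign could change with the 6 log2 arrays of GD8.5 and GD9.5, the background filter, 1 probe set per gene or the intensity trend. Those settings keep the same stage means at the same probe set. Of the 4655 calls, 3018 remained calls without GD8.5 replicate 3, 2894 without replicate 4, 3430 with 12 arrays and 3728 with the replicate block. Hes7 changed sign with 12 arrays (0.05), as did Hbb-b2 (0.17). The cause was not tested. Same-numbered arrays of GD8.5 and GD9.5 deviated from their stage means with correlations of -0.0071 and -0.0446. With 2 log2 arrays at GD8.5, their deviations mirror each other. This check therefore cannot tell whether the replicate numbers pair the arrays. A replicate block gave 2259 genes higher and 1705 lower. Percentile ranks in place of mapped levels left 3889 of 4655 called genes with the same direction in both linear arrays, against 3914. The simulated recovery of 2% at 1.2-fold came from far fewer changed probe sets, under a stricter adjusted threshold. How many small changes the fit missed in these data was therefore not measured. The fit called 679 genes with log2 changes under 0.3. Of the list counts, 53 of 82 stayed within 1.5 times throughout, heart, endoderm, neural progenitor, young neuron rises, glycolysis and ribosome falls and sterol rises among them.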

Other observations

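For the list counts that follow, 14.1% of all genes were higher and 11.5% lower. Imprinted genes, expressed from 1 parental copy, were higher for 11 of 34 and lower for 9. Dlk1 rose 3.38-fold, Plagl1, a zinc finger factor that restrains growth, 3.16-fold and Nnat, a membrane protein of neurons, 2.03-fold, while Phlda2, the noncoding RNA gene Airn (2.97-fold) and Magel2 (2.68-fold) fell. Collagens and basement membrane genes also divided: 9 of 37 were higher and 8 lower. The fibrillar collagen genes Col3a1 (6.25-fold), Col11a1 (3.70-fold) and Col5a2 (2.33-fold) rose, whereas the laminin, fibronectin and nidogen genes Lamb1 (2.41-fold), Fn1 (2.09-fold) and Nid2 (2.07-fold) fell.

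Folate, one-carbon and serine genes were higher for 5 of 32 (3 without any one of GD8.5 replicates 3 and 4 and GD9.5 replicates 3 and 4) and lower for 11. These shares of the list are 15.6% higher, near the 14.1% of all genes, and 34.4% lower. Ggh, which trims stored folates, rose 2.16-fold, Phgdh, which opens serine synthesis, rose 1.47-fold, and Gart, a purine synthesis enzyme, fell 1.46-fold. Genes known as let-7 targets were higher for 9 of 27 and lower for 6. Col3a1, Plagl1 and Col1a2 (2.21-fold) had the largest rises, and Lin28a, Arid3b (2.72-fold) and Trim71 (1.95-fold) the largest falls. Stress and immediate early genes were lower for 8 of 31 (5 without GD8.5 replicate 3, GD8.5 replicate 4 or GD9.5 replicate 2) and higher for 4. Egr2, which also marks hindbrain segments, read 4.14 and 4.27 at GD8.5 and 0.85 to 1.16 at GD9.5, a fall of at least 6.87-fold, and Fos fell 2.36-fold.

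Apoptosis genes were higher for 5 of 27 (3 without GD8.5 replicate 4) and lower for 2 (1 without GD8.5 replicate 3 or 4). The survival gene Bcl2 rose 2.51-fold and Casp2 1.70-fold, and Casp8 fell 2.08-fold. DNA and histone modifiers were higher for 7 of 45 (3 without GD8.5 replicate 4) and lower for 9 (5 without GD8.5 replicate 3). Apoptosis genes were thus 18.5% higher and 7.41% lower, and modifiers 15.6% and 20.0%, against 14.1% and 11.5% of all genes. The Polycomb gene Bmi1 rose 1.89-fold and Tet2, a DNA demethylation enzyme, 1.79-fold, while Dnmt3b fell 3.03-fold and the histone demethylase gene Kdm5b 1.39-fold.

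Of 9160 probe sets with no gene name in the table, 321 were called higher and 461 lower, 52 and 30 of them by 2-fold or more, against 19.3% of all probe sets called.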
